A study of Arabidopsis thaliana with 4 samples.

Results

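Transcript signals of FRO6 (AT5G49730), MT1C (AT1G07610) and PYE (AT3G47640), 3 Arabidopsis genes that handle metal ions or regulate the response to iron, were followed on 4 Affymetrix ATH1 arrays of total RNA. They were chosen by their differences between eif3h and wild type on these same arrays, so their genotype values are given as a description without a test. Each gene is represented by 1 of the 22746 probe sets that remain once Affymetrix controls are left out. The arrays hold 2 samples of the eif3h mutant and 2 of the wild type, with 1 array of each genotype in each of 2 experimental repeats. Both genotypes were 10-day-old seedlings raised under continuous light on sucrose-containing medium, and RNA was prepared from pooled aerial parts. The mutant samples carry 1 T-DNA allele, eif3h-1, which leaves a C-terminally truncated form of subunit h of the initiation factor eIF3. The study asked how loss of eIF3h function affects mRNA abundance and polysome loading, and only the total RNA arrays were analysed here.

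Plants acquire iron mostly as the ferrous ion, and membrane ferric reductases of the FRO family reduce ferric iron so that it can enter the cell. In leaves most iron is destined for chloroplasts, where it serves photosynthetic electron transport and iron-sulfur proteins. A hierarchy of basic helix-loop-helix (bHLH) transcription factors matches uptake and storage to supply, and metallothioneins, which are small cysteine-rich proteins, bind copper and zinc in the cytosol. FRO6 is a ferric reductase of shoot cells, MT1C is a type 1 metallothionein, and PYE (POPEYE) is a bHLH repressor of iron homeostasis genes that is best known from iron-starved roots.

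The labels were first checked against marker genes. TIF3H1, which encodes eIF3h, had signals of 245 and 432 on the eif3h arrays of repeats 1 and 2, against 1363 and 1020 on the wild-type arrays. Its probe set was named only through a list of genes that had been selected on these arrays, and where it lies relative to the T-DNA is not known here. Of the photosynthetic markers, RCA (Rubisco activase) ranged between 28004 and 50782 in eif3h and between 30586 and 58204 in the wild type. GAPB, a glyceraldehyde-phosphate dehydrogenase subunit of chloroplasts, had 17331 and 26619 in eif3h against 18412 and 32088 in the wild type. PRK (phosphoribulokinase) had 15339 and 17628 in eif3h against 20367 and 25538 in the wild type. Both mutant arrays were lower, as for 23.9% of all tested probe sets, and the mean log2 ratio of -0.47 did not pass the test (adjusted p = 0.0964 by limma). Root hair expansins EXPA7 and EXPA18 were below the filter on low signals, at 78.1 to 217 in eif3h and 61.8 to 187 in the wild type. Signals are MAS 5.0 values on a linear scale, set to an equal trimmed mean on each array, and they are not compared between probe sets. The tested probe sets were the brightest 38.8% of all, and the 3 genes were among them.

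FRO6 was lower in the mutant in both repeats, and by more in repeat 1. Its signal was 1262 in repeat 1 and 3327 in repeat 2 of eif3h, against 10860 and 7171 in the same repeats of the wild type. Both mutant arrays thus lay below both wild-type arrays, as they did for 23.9% of all tested probe sets. Signals averaged 2294 ± 1460 in eif3h and 9016 ± 2609 in the wild type (SD, n = 2 each). The log2 ratio of eif3h over wild type was -3.11 in repeat 1 and -1.11 in repeat 2, with a mean of -2.11 ± 1.41 (SD, n = 2), so that FRO6 was 8.61-fold lower in the mutant in the first repeat and 2.16-fold lower in the second. In bulk tissue, fewer cells of a type and less RNA per cell cannot be told apart.

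Among the tested probe sets, 49 had a mean ratio below that of FRO6. The methods apply a 2-fold rule, which asks for ratios beyond 2-fold in both repeats or for a mean beyond 2-fold with a small SD, and 3.76% of tested probe sets met it in the direction of lower signals. FRO6 met this rule and MT1C and PYE did not, which is a description because the genes were chosen on this contrast. The FRO6 probe set was named only through the list of changed genes, selected in part on these arrays. Its suffix marks it as one that may detect related transcripts. FRO7 (AT5G49740), the closest relative and the next gene on chromosome 5, has no probe set that could be named here, so signal from FRO6 and FRO7 cannot be told apart.

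**Figure D1:**
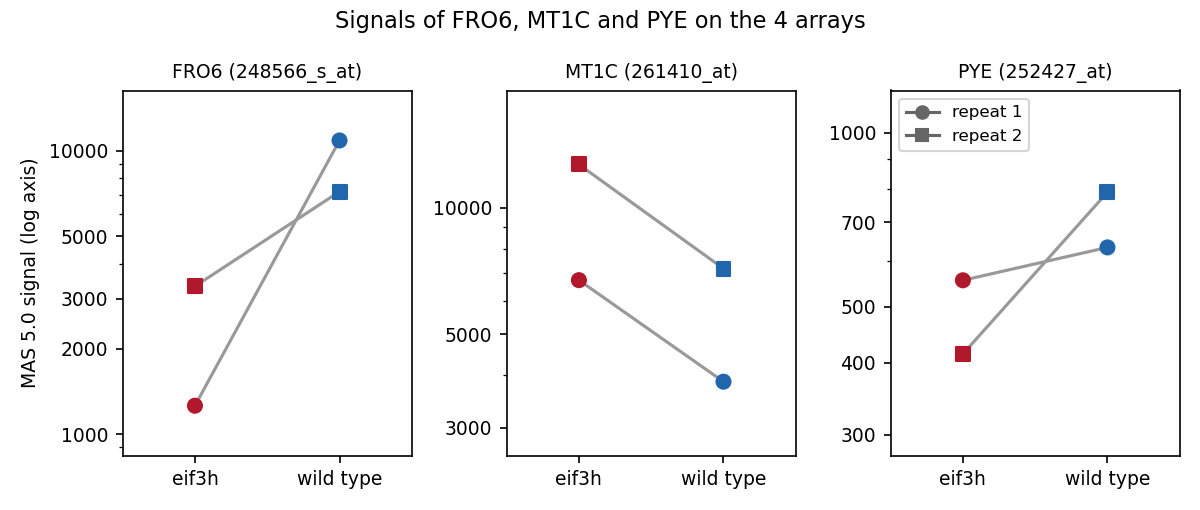
MAS 5.0 signals (log axis) of FRO6, MT1C and PYE in eif3h and wild type, with 1 point per array and a line joining the arrays of a repeat (circles, repeat 1, and squares, repeat 2). FRO6 lies at 1262 and 3327 in eif3h against 10860 and 7171 in the wild type, the MT1C lines run nearly parallel, and the PYE lines cross.

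MT1C was higher in the mutant by nearly the same factor in both repeats. Its signal was 6732 and 12691 in repeats 1 and 2 of eif3h, against 3859 and 7172 in the wild type. Because both genotypes were brighter in repeat 2, the groups overlapped, with the eif3h array of repeat 1 below the wild-type array of repeat 2. Mean signals were 9711 ± 4214 in eif3h and 5516 ± 2343 in the wild type (SD, n = 2 each), a difference no larger than the SD between the eif3h arrays. Within repeats the log2 ratios were 0.80 and 0.82, with a mean of 0.81 and an SD of 0.0145, which corresponds to 1.76-fold. Across all tested probe sets the median SD of the paired ratios was 0.185, and 5% of them had an SD under 0.0163. The mean ratio of MT1C was exceeded by 390 tested probe sets. MT1A, the close relative of MT1C in the type 1 family, has no probe set that could be named, and its RNA could not be followed.

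PYE was lower in the mutant, mainly in repeat 2. Its signal was 555 in repeat 1 and 414 in repeat 2 of eif3h, against 633 and 789 in the wild type. The mutant arrays lay below the wild-type arrays, as they did for 23.9% of all tested probe sets. In repeat 1, however, the genotypes were close, with a log2 ratio of -0.19 (1.14-fold) against -0.93 (1.91-fold) in repeat 2. The mean ratio was -0.56 ± 0.52 (SD, n = 2), or 1.47-fold lower, and the SD of the paired ratios was thus almost as large as their mean. Signals averaged 485 ± 99.98 in eif3h and 711 ± 110 in the wild type (SD, n = 2 each). A lower mean ratio than that of PYE was found for 1114 tested probe sets, and the range that held the central 90% of probe sets ran from -0.92 to 0.78.

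**Figure D2:**
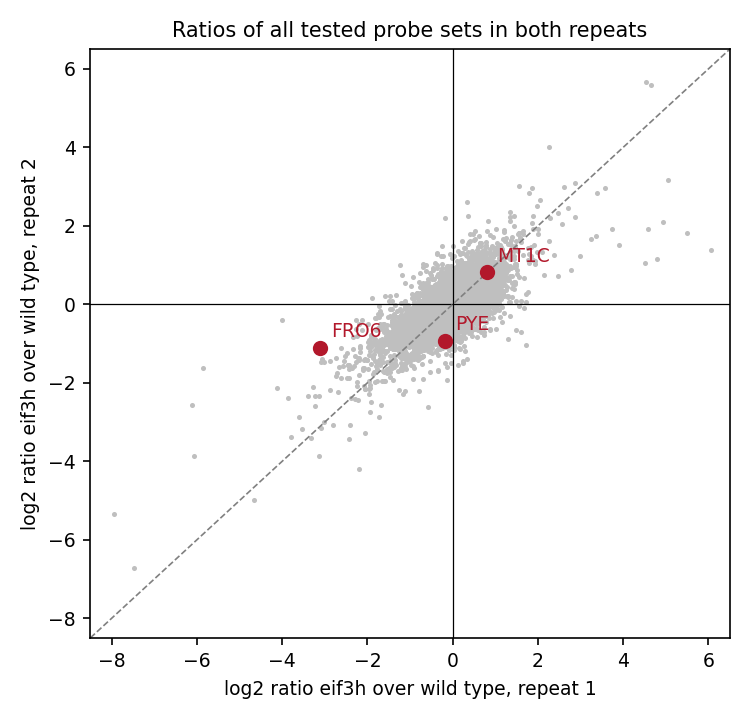
Log2 ratio of eif3h over wild type in repeat 1 (horizontal axis) and repeat 2 (vertical axis) for each tested probe set (grey), with FRO6, MT1C and PYE in red and a dashed line where both repeats are equal. MT1C (0.80 and 0.82) lies on the line, whereas FRO6 (-3.11 and -1.11) and PYE (-0.19 and -0.93) lie to opposite sides of it.

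The 3 genes thus had different patterns over the 4 arrays. With log2 signals centred on each probe set's own mean, the Euclidean distance over the 4 arrays was 3.12 between FRO6 and MT1C, 2.12 between FRO6 and PYE, and 1.72 between MT1C and PYE. They lie on chromosomes 5, 1 and 3. The same distance was used to find the most similar patterns among 4765 other tested probe sets with 1 gene symbol. The 5 nearest to FRO6 were AT3G06070, AT1G23390, AT5G61590, SVL2 and AT2G29290, at distances between 0.26 and 0.49. AT1G23390, for instance, had signals of 669 and 1856 in eif3h against 5595 and 4864 in the wild type, and so shared the stronger reduction in repeat 1. Nearest to MT1C were AQI, AT2G16660, AT5G28220, AT5G37740 and AT5G63680, at 0.21 to 0.28. AQI had signals of 2013 and 3367 in eif3h and of 1262 and 2099 in the wild type. Nearest to PYE were AT4G17360, AT1G32520, AT1G74530, LSMT-L (a protein methyltransferase related to that of the Rubisco large subunit) and AT5G53500, at 0.07 to 0.13. AT1G32520 had signals of 678 and 527 in eif3h against 748 and 994 in the wild type. These distances rest on 4 arrays and were given no test, and SVL2 was named only through the selected list.

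The comparison of the repeats was added after the values were seen, and it was tested with limma in the same fit as the genotype. The residual of that fit is the disagreement of the 2 genotype ratios. The genes were chosen on those ratios, so the test is not free of that choice. The 2 repeats differ in scan day or scanner, or in both, as well as in plant material, and these cannot be told apart. Over all tested probe sets, 1.02% were called higher and 1.45% lower in repeat 2. MT1C was 1.89-fold higher in repeat 2 than in repeat 1 of eif3h and 1.86-fold higher in the wild type, and its repeat term was 0.90 ± 0.17 on the log2 scale (SE, adjusted p = 0.0435 by limma). With quantile normalization the difference was 0.92 but the call was lost (adjusted p = 0.0733 by limma), and it was also lost with all probe sets in the fit (adjusted p = 0.398 by limma).

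FRO6 went in opposite directions in the 2 genotypes, with a signal 2.64-fold higher in repeat 2 than in repeat 1 of eif3h and a log2 change of -0.60 in the wild type. Its repeat term was 0.40 ± 0.40 (SE, adjusted p = 0.587 by limma). PYE did likewise with the signs reversed, at -0.42 in eif3h and 0.32 in the wild type, and had a repeat term of -0.05 ± 0.22 (SE, adjusted p = 0.909 by limma). The central 90% of tested probe sets changed by between -0.71 and 0.68 in eif3h and between -0.81 and 0.71 in the wild type. FRO6 in the mutant and MT1C in both genotypes were above these ranges.

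Other genes also differed between the repeats. CCS, the copper chaperone that delivers copper to superoxide dismutase, had signals of 232 and 2553 in repeats 1 and 2 of eif3h, against 281 and 2539 in the wild type. It was therefore 11.0-fold higher in repeat 2 of the mutant and 9.02-fold higher in repeat 2 of the wild type (repeat term 3.32 ± 0.18, SE, adjusted p = 0.00122 by limma), while the genotypes differed by -0.14 (adjusted p = 0.627 by limma). The repeat call of CCS held with quantile normalization (adjusted p = 0.00618 by limma) and was lost with all probe sets in the fit (adjusted p = 0.398 by limma) and with no genotype term (adjusted p = 0.232 by limma). The photosynthetic marker RCA differed between repeats about as much as MT1C, by 0.89 (adjusted p = 0.0452 by limma), but by 0.32 with quantile normalization (adjusted p = 0.32 by limma). With Affymetrix controls included, the highest signal on an array of repeat 2 was 86884 in eif3h and 102339 in the wild type. In repeat 1 it was 37509 and 43564. Among 554 probe sets with a mean signal of at least 5000, a class that includes MT1C, the median repeat change was 0.15. Of these probe sets, 53.1% were higher in repeat 2 in both genotypes, and 2.35% were called higher in repeat 2.

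**Figure D3:**
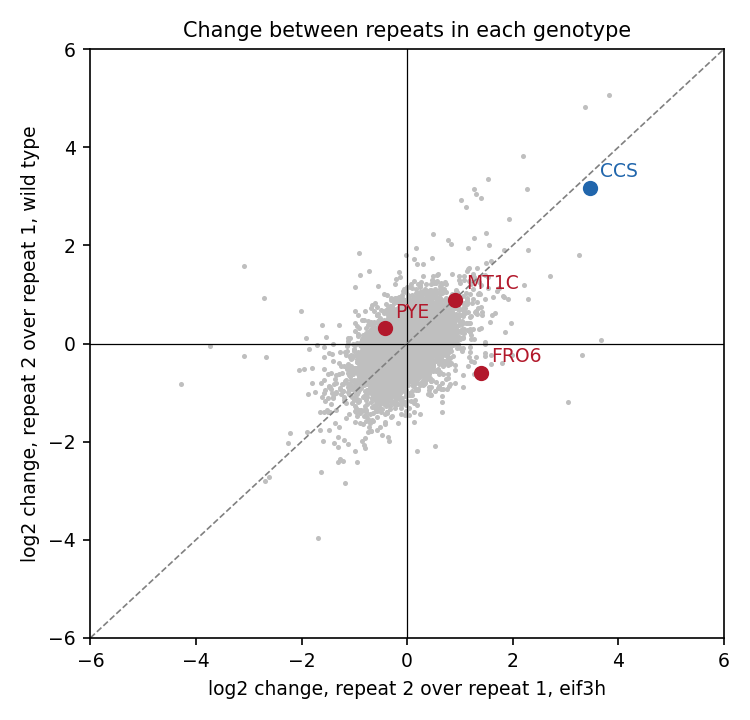
Log2 change from repeat 1 to repeat 2 in eif3h (horizontal axis) and in the wild type (vertical axis) for each tested probe set (grey), with the 3 genes in red and CCS in blue; the dashed line marks equal changes. MT1C (0.91 and 0.89) and CCS (3.46 and 3.17) lie near the line, while FRO6 (1.40 and -0.60) and PYE (-0.42 and 0.32) lie in quadrants of opposite sign.

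Other genes of metal handling were taken from 10 lists of ferric reductases, metallothioneins, iron regulators, transporters, ferritins, copper, zinc and iron-sulfur genes, superoxide dismutases and thiol chelators. Besides the 3 genes, 18 list genes had a probe set that could be named, with 19 probe sets of which 13 passed the filter on low signals. By limma, none of the 13 was called higher in eif3h and 2 were called lower, namely IMA1 and MAR1. MAR1 and NFU1 were named only through the study's list of changed genes, of which only part was selected on these arrays. The mean log2 ratio of NFU1 here was -0.14. Of the 11 named by the platform annotation, 0 were called higher and 1 lower, with 7 ratios below 0 and 4 above. Over all tested probe sets 8.49% were called higher and 9.68% lower. In this fit, shares over all tested probe sets were counted for adjusted calls only. With no such share to set them against, 2 of the 13 were higher and 3 lower at an unadjusted p under 0.05 by limma. Their median log2 ratio was -0.27 and that of all tested probe sets was 0.03, with 9 below 0 and 4 above, where 46.9% of all tested probe sets were below 0. In 6 of the 13 both eif3h arrays lay below both wild-type arrays and in 2 they lay above, which over all tested probe sets held for 23.9% and 28.4%. Of the 11 named by the platform annotation, 5 lay below and 2 above. The lists were written with earlier results of these data known. No ferritin, superoxide dismutase or thiol chelator gene, and no further ferric reductase or metallothionein, could be followed.

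Of the iron-response regulators, IMA1, a small peptide that promotes the response to iron deficiency, had signals of 3257 and 2996 in eif3h against 4487 and 5317 in the wild type. Both mutant arrays were below the wild-type arrays, as for 23.9% of all tested probe sets, and the mean log2 ratio was -0.64 ± 0.18 (SE, adjusted p = 0.0493 by limma). Without the repeat as a block the adjusted p was 0.185 by limma, and the call was lost as well with quantile normalization (adjusted p = 0.0738 by limma). It was lost too with all probe sets in the fit, where 0 of 22746 probe sets were called. In fits without the block that left out 1 array, the ratio of IMA1 ranged between -0.77 and -0.52. The bHLH partners with which PYE is known to interact were not called in either direction. ILR3 had signals of 2555 and 1975 in eif3h against 1859 and 2074 in the wild type, bHLH104 had 544 and 533 against 747 and 564, and bHLH115 had 1496 and 1233 against 956 and 1014. For bHLH115 both mutant arrays lay above the wild type, as for 28.4% of all tested probe sets, with a mean ratio of 0.46 (adjusted p = 0.116 by limma). For bHLH104 both lay below, as for 23.9%, with a mean ratio of -0.27 (adjusted p = 0.332 by limma).

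The related activator bHLH34 differed by 0.10 (adjusted p = 0.749 by limma). URI (bHLH121), which partners these factors in activating iron-deficiency genes, was at 448 and 369 in eif3h against 560 and 464 in the wild type, a mean ratio of -0.33 with a spread between repeats of 0.0072 that did not pass the test (adjusted p = 0.214 by limma). Over the 6 regulators tested, 3 ratios were below 0 and 3 above, with a median of -0.09.

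Regulators with weak signals were not tested in the filtered fit. bHLH101, an activator of iron uptake genes, had signals of 43.0 and 238 in eif3h against 538 and 447 in the wild type. Like FRO6 it was lower in both repeats and more so in repeat 1 (-3.64 against -0.91). In a fit of all probe sets, which called 0 of 22746, its adjusted p was 0.447 by limma. The ubiquitin ligase gene BTSL1, which restrains the iron-deficiency response, had 2 probe sets that disagreed. One read 39.7 and 79.9 in eif3h against 110 and 250 in the wild type, and the other read 3.4 and 11.6 against 2.4 and 2.6. BTSL2 had signals of 129 and 188 in eif3h against 113 and 143 in the wild type.

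**Figure D4:**
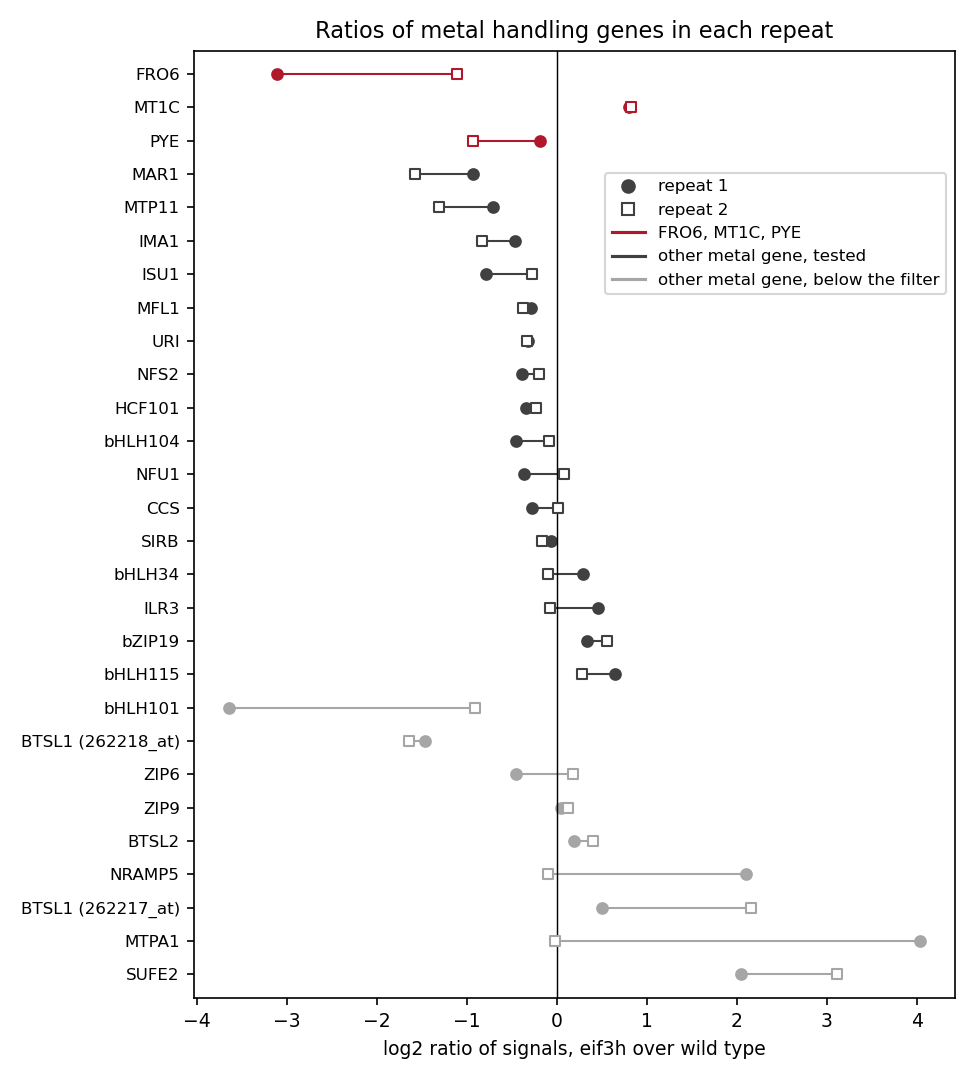
Log2 ratio of eif3h over wild type in repeat 1 (filled circles) and repeat 2 (open squares) for FRO6, MT1C and PYE (red), the other metal genes that were tested (black) and those below the filter on low signals (grey). FRO6 has the lowest ratio in repeat 1 of the tested genes shown, at -3.11, and only MT1C, bHLH115 and bZIP19 among them are above 0 in both repeats.

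Among transporters, MAR1, a ferroportin-family protein of plastids and mitochondria, had signals of 612 and 389 in eif3h against 1173 and 1165 in the wild type. Its mean log2 ratio was -1.26 ± 0.21 (SE, adjusted p = 0.00911 by limma), and the call was lost without the repeat as a block (adjusted p = 0.0932 by limma). The call was lost too with all probe sets in the fit (adjusted p = 0.414 by limma), where 0 of 22746 probe sets were called. It was also lost in fits without the block that left out 1 array, where the adjusted p ranged between 0.0898 and 0.25 by limma. Its probe set was named only through the list of changed genes, selected in part on these arrays, so this call is not independent evidence. MTP11, a manganese transporter that was added to the lists after the annotation had been read, had signals of 1308 and 599 in eif3h against 2132 and 1489 in the wild type (mean ratio -1.01 ± 0.20, SE, adjusted p = 0.0178 by limma, 0.239 without the block and 0.421 with all probe sets in the fit). It was called lower and the other 2 added genes tested, MFL1 and SIRB, were not called, where 9.68% of all tested probe sets were called lower and 8.49% higher.

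The zinc-deficiency regulator bZIP19 had signals of 978 and 1022 in eif3h against 773 and 696 in the wild type, with a mean ratio of 0.45 (adjusted p = 0.115 by limma). The zinc transporter gene ZIP6 read 256 and 258 in eif3h against 350 and 228 in the wild type, and ZIP9 read 77.8 and 138 against 75.2 and 127, both below the filter. Of the iron-sulfur cluster genes, 4 were tested, all 4 had a mean ratio below 0 (46.9% of all tested probe sets did) with a median of -0.29, and none was called by limma. The largest difference was that of ISU1, a mitochondrial scaffold, which had signals of 1357 and 1846 in eif3h against 2336 and 2240 in the wild type (mean ratio -0.53, adjusted p = 0.0958 by limma). HCF101, a chloroplast carrier of iron-sulfur clusters, had 1794 and 2203 in eif3h against 2270 and 2592 in the wild type (mean ratio -0.29, adjusted p = 0.272 by limma).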

How the data were processed

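Arabidopsis ATH1 arrays of total RNA, 2 of eif3h and 2 of wild type, were grouped by their titles, which also give the repeat. The authors deposited 1 intensity per probe set and array, a MAS 5.0 signal from the Affymetrix software, scaled to an equal trimmed mean on each array (500.0 here, with 2% trimmed at each end). The table has no detection calls. The genome build was not given in the sources used here, so no coordinates are printed. The array settings served to establish that scan day and scanner were shared within a repeat.

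Of 22746 probe sets, the 8831 with the highest mean log2 signal (327 or more) were tested, without further normalization. The log2 values entered lmFit and eBayes of limma 3.58.1 (R 4.3.3) with terms for repeat and genotype and Benjamini-Hochberg adjustment at 0.05. The fit has 1 residual and 6.58 prior degrees of freedom. The repeat was a block because the methods form each ratio between arrays of 1 repeat. Changes from repeat to repeat in the 2 genotypes had a correlation of 0.530 across probe sets. An exact permutation test of 2 arrays against 2 cannot go below p = 0.333 (two-sided) and was not used. The methods call the repeats biological replicates, and the number of arrays limits the precision.

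In the platform annotation 13513 probe sets have 1 gene symbol, 503 several and 8730 none. A further 364, with FRO6, TIF3H1, MAR1, GAPB, NFU1 and SVL2 among them, were named only through the locus column of a supplementary list of changed genes. The 3 genes and the lists were chosen with earlier results of these data known, and 6 genes were added once the annotation had been read. Of the markers, 3 of 8 for shoots and 2 of 8 for roots had a probe set. Genes named in the text are the 3 genes, TIF3H1, list genes of the reductases, metallothioneins, regulators and ferritins with a probe set, called genes or the 2 brightest of other lists, and the 5 nearest patterns to each of the 3 genes. Examples beyond that rule were chosen after their values were seen, as was the test between repeats. The fits were repeated with no replicate block, after median centring or quantile normalization, on all or the 5000 brightest probe sets, with 50 added to each signal, with a prior variance that follows intensity, with 1 array omitted at a time, and without probe sets prone to cross-hybridization. Summaries and plots were made in Python 3.11.15 with numpy 2.4.6, pandas 2.3.3 and matplotlib 3.10.9.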

Additional observations from a re-analysis of the deposited data

Results flagged for a closer look

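For 8 of the 16 metal genes tested, the 3 chosen genes included, the change from repeat 1 to repeat 2 ran in opposite directions in the 2 genotypes, with 1 array behind each value, and the difference between the genotypes was not tested. Over all tested probe sets this held for 32.1%. The change in eif3h minus that in the wild type was 2.0 on the log2 scale for FRO6 and -0.74 for PYE. It was -0.38 for bHLH34, -0.53 for ILR3, -0.36 for bHLH115 and -0.37 for IMA1 among the iron-response regulators. It was 0.21 for bZIP19 and 0.50 for ISU1.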

How the results depend on the processing

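The 2 metal genes called lower by limma, IMA1 and MAR1, came from the fit with the replicate block. With no replicate block 0 were called (2 at an unadjusted p under 0.05), with all probe sets 0 (2 at an unadjusted p under 0.05), and without each array in turn between 0 and 0, in fits with no block because 3 arrays leave no residual degrees of freedom with it. Quantile normalization left 1 and omitting probe sets prone to cross-hybridization left 1. Calls were also lost over the whole array. Among all tested probe sets, 14 were called higher and 67 lower with no replicate block, against 750 and 855 with it. The fit of all probe sets called 0 in total, with 2683 at an unadjusted p under 0.05 by limma. The lost calls in these fits are therefore not particular to metal genes. With no block, unadjusted p-values were not counted over all tested probe sets. No metal gene was called higher by limma under any alternative, with 0 to 2 at an unadjusted p under 0.05. The mean log2 ratio of MT1C was 0.77 with median centring, 0.36 without eif3h replicate 2 and 1.27 without eif3h replicate 1. As the last 2 fits had no block, the difference between repeats enters their ratios. Within repeats the log2 ratios of MT1C were 0.80 and 0.82. Without 1 array, FRO6 ranged between -2.81 (without eif3h replicate 2) and -1.41 (without eif3h replicate 1), and PYE between -0.77 and -0.35. FRO6 has no value without those prone to cross-hybridization, and PYE none among the 5000 brightest. The directions of the 3 genes were kept under every alternative that gave a value. The repeat difference of MT1C, an analysis added after the data were seen, lost its call under each alternative tried, and without 1 array it ranged between 0.49 and 1.32. Fits of the repeat difference without 1 array also had no genotype term, so these choices cannot be told apart. In them CCS ranged between 3.18 and 3.46 and was called in 2 of 4, and with all 4 arrays and no genotype term it was not called. Weak signals such as those of bHLH101 and BTSL1 limit what can be read from their ratios. The causes were not tested.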

Other observations

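Further metal genes, added to the lists once the annotation had been read, were below the filter on low signals and were not tested in the filtered fit. SUFE2, which encodes an activator of the plastid cysteine desulfurase, had signals of 202 and 216 in eif3h against 48.9 and 25 in the wild type. Its adjusted p in a fit of all probe sets, which called 0 of 22746, was 0.414 by limma. NRAMP5, of a family of divalent metal transporters, had 71.1 and 103 in eif3h against 16.5 and 110 in the wild type. MTPA1, of a family of cation transporters, had 51.0 and 43.4 in eif3h against 3.1 and 43.9 in the wild type, so that its difference lay in 1 wild-type array.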
